A study of Mus musculus with 13 samples.

Results

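The 41 genes described here encode proteins of the complement and coagulation systems that circulate in plasma or, for Cd55, sit on cell surfaces. They were chosen by name, with earlier results of these data known. Only symbols among the 11779 genes of the liver table were kept, so the listing of all 41 says nothing about detection. RNA was sequenced from the livers of Balb/c mice 5 days after an intravenous injection of GalNAc-conjugated antisense oligonucleotides (ASOs), short nucleic acids whose sugar tag is taken up by hepatocytes. In the group Liver LL35 ASO, 3 mice received a mix of 5 ASOs against LL35 (Falcor), a long non-coding RNA of hepatocytes. In the group Liver Luc ASO another 3 mice received an ASO against firefly luciferase, a gene that mice lack. The main text of the study gives 5 LL35 ASOs for mice, whereas its supplement lists fewer. The labels give a dose of 150 mg/kg for each ASO of the LL35 group, and none is recorded for the Luc ASO. The methods of the study, in contrast, describe its ASO doses as totals. The age and sex of the mice are not given in the sources used here, and all 6 carried an ASO, so no untreated liver is among them.

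The table holds a single value of level for each gene, the authors' mean normalized count over both liver groups together. It holds no value for a single mouse, and its other numeric columns are the authors' own comparison, which was not used. The levels below are therefore those of ASO-treated liver as a whole. They carry no spread between mice, no comparison of LL35 ASO with Luc ASO was made, and the reads behind each value are unknown. LL35 itself (9030622O22Rik) was not analysed here, so its knockdown could not be checked, and the 7 libraries of AML12 cells, a mouse hepatocyte line, were not analysed here.

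Complement is a cascade of plasma proteases that marks and lyses microbes. It starts from antibodies, from sugar-binding lectins or by slow self-activation, and its branches meet in the cleavage of C3. Coagulation is a second cascade, in which vitamin K-dependent proteases lead to thrombin, and thrombin turns fibrinogen into fibrin. Hepatocytes secrete most proteins of both systems, and several of them are acute phase proteins, whose synthesis rises in inflammation.

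The tissue was checked against marker genes. All 10 hepatocyte markers were listed, with levels from 2092 normalized counts per kilobase of exon for Asgr1 to 519843 for Alb, the gene of albumin. The 8 markers of Kupffer cells and macrophages lay between 55.4 and 791, the 8 of liver endothelium between 41.4 and 289, and the 8 of stellate cells and fibroblasts between 13.8 and 265. Of 6 cholangiocyte markers 2 were listed, and of 8 lymphocyte markers 1, Cd3e at 4.56. Of 6 erythroid and platelet markers 4 were listed, between 14.3 and 743. Of these, 2 stood at or above the 90th percentile of listed genes. In bulk tissue, fewer cells of a type and less RNA per cell cannot be told apart.

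To compare genes, each mean normalized count was divided by the length of all exons of the gene, and this quotient is the level given here. The 41 genes were far above most of the transcriptome. Their median level was 986 normalized counts per kilobase, against 51.5 over the 11754 listed genes with a length. Of the 41, 33 stood at or above the 90th percentile of listed genes, 25 at or above the 95th and 9 at or above the 99th. Together they make up 0.348% of the listed genes and held 4.43% of the summed mean normalized counts, while Alb alone held 10.8%. C3, Ahsg, Fgb, Fga, Plg and Fgg accounted for 70.1% of the normalized counts of the 41.

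**Figure D1:**
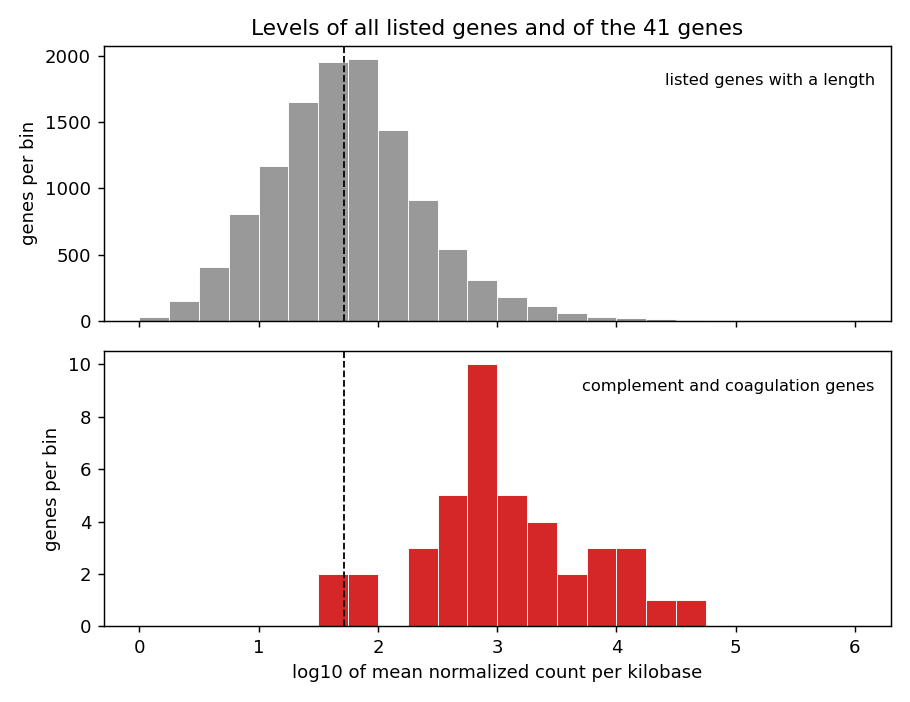
Number of genes per bin of level (log10 of the mean normalized count per kilobase of exon, x axis) for all listed genes with a length (upper panel) and for the 41 complement and coagulation genes (lower panel). The dashed line is the median of listed genes, 51.5 normalized counts per kilobase, and 40 of the 41 genes lie above it.

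The 20 genes of coagulation, fibrinolysis and related plasma proteins had a median level of 1670, and 19 of them stood at or above the 90th percentile. For the 21 complement genes the median was 689, and 14 did. The members spanned a 1276-fold range, from Cfb at 32.2 to Ahsg at 41124. The range was 2194-fold over coding length and 754-fold, with Cd55 lowest, over exon bases not shared with another gene of the same strand.

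**Figure D2:**
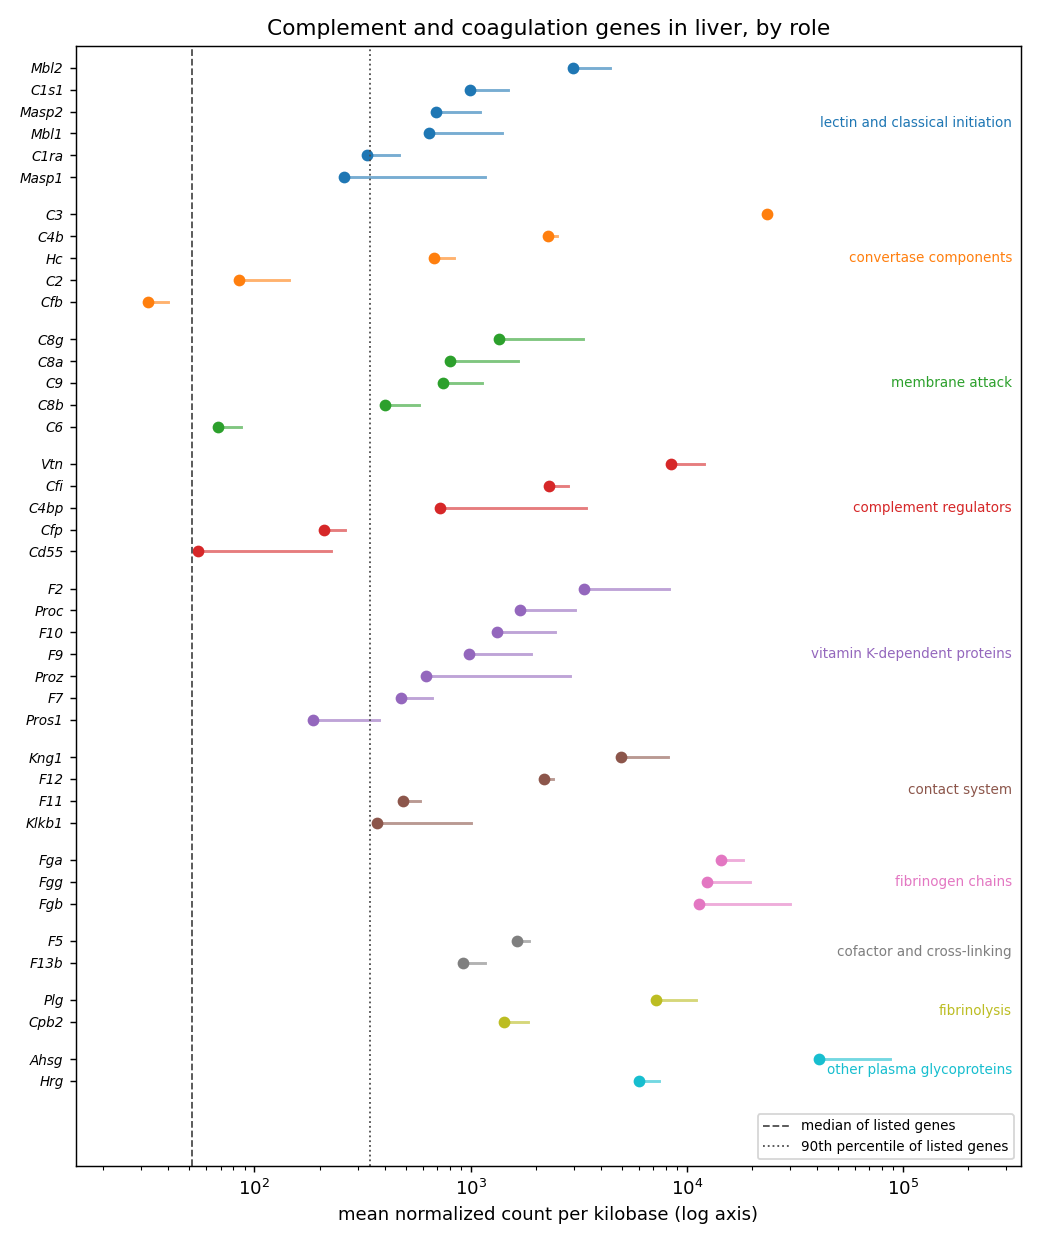
Level of each of the 41 genes in liver (x axis, authors' mean normalized count per kilobase, log axis), grouped by role. Points use the exon length of the gene, and lines run from the lowest to the highest level over exon, longest transcript and coding length. The fibrinogen chains, C3 and Ahsg lie farthest right, and Cfb is the single gene left of the dashed median of 51.5, with the 90th percentile dotted.

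The fibrinogen chains had high and similar levels. Fibrinogen is built from equal numbers of its alpha, beta and gamma chains, encoded by Fga, Fgb and Fgg. The mean normalized counts were 43319 for Fga, 43564 for Fgb and 26030 for Fgg, and per kilobase of exon the levels were 14392, 11434 and 12437. The highest was thus 1.26-fold above the lowest, and 1.65-fold over coding length. The order of the chains depended on the length used, since over coding length alone Fgb led with 30190, followed by Fgg with 19586 and Fga with 18301. The 3 genes lie side by side on chromosome 3 in the order Fgg, Fga and Fgb, with no other protein-coding gene between them.

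The 250 bases before the annotated start of each chain are printed as an example of the upstream sequence of evenly expressed neighbors, 5′ to 3′ on the strand of the gene, from RefSeq on GRCm38.p6. The positions are those of RefSeq, since no source used here names the build of the deposited counts. Capitals mark matches to the motifs searched, which were HNF1 (GTTAATNAT), C/EBP (TTGCNNAA), HNF4 (CAAAGTCCA) and STAT3 (TTCCNGGAA) on both strands, and the TATA box (TATAAA) on the strand of the gene, starting 40 to 20 bases before the start. These motifs do not overlap each other in the sequences shown. Fga is at chr3:83025903-83026152 on the + strand, Fgb at chr3:83049864-83050113 on the - strand and Fgg at chr3:83007474-83007723 on the + strand.
Fga: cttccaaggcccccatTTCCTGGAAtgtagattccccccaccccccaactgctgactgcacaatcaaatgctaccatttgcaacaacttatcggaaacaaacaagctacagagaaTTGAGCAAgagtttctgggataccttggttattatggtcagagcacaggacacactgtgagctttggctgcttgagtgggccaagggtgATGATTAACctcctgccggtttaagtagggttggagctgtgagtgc
Fgb: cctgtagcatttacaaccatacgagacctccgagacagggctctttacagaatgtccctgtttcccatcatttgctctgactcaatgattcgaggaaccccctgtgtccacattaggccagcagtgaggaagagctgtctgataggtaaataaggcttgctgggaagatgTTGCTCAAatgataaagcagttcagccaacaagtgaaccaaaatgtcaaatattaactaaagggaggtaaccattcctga
Fgg: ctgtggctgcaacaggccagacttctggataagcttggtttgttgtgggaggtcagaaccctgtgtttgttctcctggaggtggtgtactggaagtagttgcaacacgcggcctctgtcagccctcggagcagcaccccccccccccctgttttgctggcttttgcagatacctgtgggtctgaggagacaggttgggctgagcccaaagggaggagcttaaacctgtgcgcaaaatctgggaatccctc

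In Fga the STAT3 motif lay 234 to 226 bases before the start, the C/EBP motif 135 to 128 and the HNF1 motif 46 to 38. Fgb had a C/EBP motif 80 to 73 bases before its start. None of these letters was found in the window of Fgg. Upstream sequences were matched for 33 of the 41 genes, and C2, C4b, Cfb, Cfi, Kng1, Masp1, Plg and Proc had no entry. HNF1 is a hepatocyte transcription factor, and its motif was present upstream of C4bp, F13b, Fga and Hc, 12.1% of the 33, against 0.643% of 9332 listed genes. The C/EBP motif, bound by a family of liver and acute phase regulators, occurred in Ahsg, C3, C9, F11, F9, Fga, Fgb, Hrg and Klkb1, 27.3% against 7.82%. The STAT3 motif was found in Fga and Pros1, 6.06% against 1.07%. Neither the HNF4 motif, present in 0.504% of listed genes, nor the TATA motif, present in 1.41%, was found among the 33.

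The members also shared a low CpG content. A median of 3 CpG dinucleotides stood in the 250 bases of the 33 genes, against 16 over the listed genes. At most 5 were present in 27 of the 33 (81.8%) and in 16.6% of listed genes. Mbl1, Hrg and C9 had 0, whereas Pros1, the gene of protein S, had 15 and C8g had 13. The median GC content was 49.2%, against 59.6% over the listed genes, from 30.8% for F13b to 64.4% for Pros1. These are descriptions of sequence, and their relation to the levels was not tested.

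**Figure D3:**
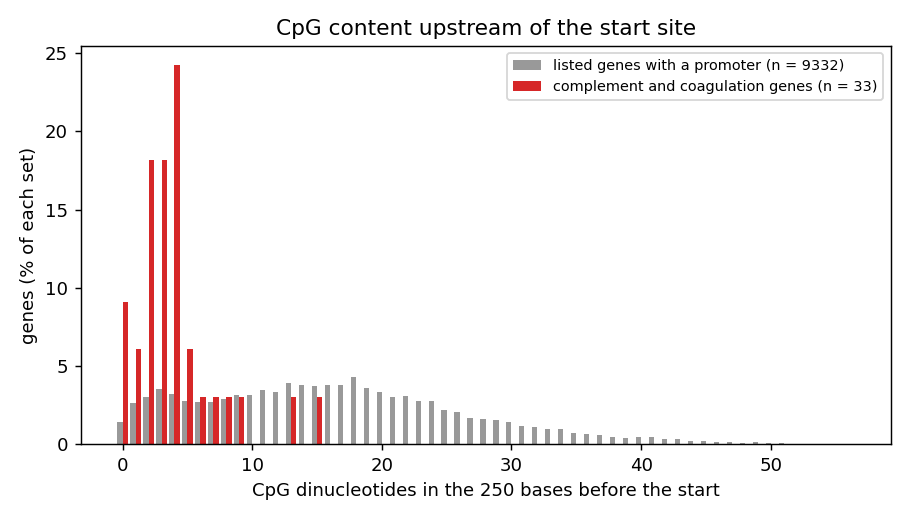
Percentage of genes (y axis) by the number of CpG dinucleotides in the 250 bases before the start (x axis), for 9332 listed genes (gray) and 33 complement and coagulation genes (red). The red bars gather at low counts, with 27 of 33 genes at 5 or fewer.

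Among the genes that start complement, Mbl2 was the highest at 2974 normalized counts per kilobase. Mbl1 and Mbl2 encode the mannose-binding lectins, and Mbl2 stood 4.66-fold above Mbl1 at 639. Their partner proteases Masp2 and Masp1 had levels of 689 and 260, but the order turned over coding length, with 1109 and 1161. The proteases of the C1 complex, C1s1 and C1ra, had levels of 993 and 332. The C1q chains, which bind antibody and are made mainly by macrophages, are no members, and their genes C1qa, C1qb and C1qc had levels of 442, 420 and 207.

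C3 led the complement genes, at 23470 normalized counts per kilobase and rank 19 of the listed genes. Its product is cleaved by the convertases of every complement pathway. C4b, which with C2 forms the classical convertase, had a level of 2292, and Hc, the gene of complement component C5, had 676. C3 therefore stood 10.2-fold above C4b and 34.7-fold above Hc. The 2 genes of the catalytic convertase subunits were far lower, C2 at 85.1 (percentile 64.9) and Cfb, the factor B of the alternative pathway, at 32.2 (percentile 36.3). Over exon, longest transcript and coding length the order of these genes was C3, C4b, Hc, C2 and Cfb.

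The low values of C2 and Cfb go with an overlapping gene model. The GENCODE release M21 annotation holds a readthrough gene, Gm20547, on the same strand, which shares 79.5% of the exon bases of Cfb and 42.8% of those of C2. The authors counted with the GeneCounts mode of STAR, which assigns a read only where a single gene fits. It leaves out reads from such bases where its annotation holds both genes. Which Ensembl release the authors used is not given in the sources used here. Gm20547 is not among the listed genes. Divided by the unshared exon bases alone, 579 for Cfb and 2216 for C2, the levels were 157 and 149, so that the order of the pair changed. These levels stood at percentiles 79.3 and 78.2 of the listed genes, whose own levels were kept over full exon length. Dividing by unshared bases takes all reads from shared bases as uncounted, which the table cannot show. Klkb1, the gene of plasma prekallikrein, shares 43.2% of its exon bases with the gene model Gm45753, and its level rose from 368 to 647 by the same step. No other member overlapped a gene on its own strand.

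The terminal components form the membrane attack complex, a pore. C8g had the highest level, 1347 normalized counts per kilobase, followed by C8a with 806, C9 with 744 and C8b with 401. C6 was much lower at 68. C8g was highest, C8b next to lowest and C6 lowest over all 3 lengths. The 3 chains of C8, which form a single protein, thus spanned 3.36-fold, and 5.75-fold over coding length. C7, a further pore component that is no member, was at 8.02, 8.48-fold below C6.

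The complement regulators were uneven. Vitronectin, encoded by Vtn, blocks the pore and binds to matrix, and it had a level of 8454. Cfi, the factor I protease that cleaves active C3 and C4, was at 2296, and its cofactor C4bp at 719, but over coding length the order changed, with 2818 and 3437. Cfp, the gene of properdin, which stabilizes the alternative convertase and is known as a product of myeloid cells, was at 210. Cd55, a membrane-anchored inhibitor of convertases, was lowest at 54.6 (percentile 51.6). Serping1, the gene of the C1 inhibitor, is no member and had a level of 3302.

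The vitamin K-dependent proteins ranged from F2, prothrombin, at 3334 normalized counts per kilobase to Pros1 at 186. Proc, the anticoagulant protease protein C, had 1696, F10 had 1329, F9 had 986, Proz had 619 and F7 had 478. Over all lengths used, F2 and Proc came first and F7 and Pros1 last, while the order of F10, F9 and Proz changed. Protein S is the cofactor of protein C, and Proc stood 9.12-fold above Pros1. F7, F10 and Proz are direct neighbors on chromosome 8, and their levels spanned 2.78-fold with F10 highest, or 4.32-fold with Proz highest over coding length. Ggcx and Vkorc1, whose products carry out and sustain the vitamin K-dependent carboxylation, are no members and had levels of 375 and 197.

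In the contact system, which starts clotting on charged surfaces and releases bradykinin, Kng1 was highest. This gene of kininogen, the bradykinin precursor, had a level of 4975, and F12, the protease factor XII, had 2196. F11 had 485 and Klkb1 368, and the latter pair, neighbors on chromosome 8, changed order over coding length, with 581 and 1008, and over unshared exon bases. F5, the cofactor of factor X, had a level of 1644, and F13b, the carrier subunit of the fibrin cross-linking enzyme, had 922. F8, the homologous cofactor made mainly by endothelium, is no member and was at 62.1, 26.5-fold below F5.

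Plg, the zymogen of the fibrin-cleaving protease plasmin, had a level of 7231, 5.05-fold above Cpb2, whose product slows fibrinolysis by trimming fibrin, at 1431. The inhibitor of plasmin, Serpinf2, is no member and was at 3653. Hrg, a histidine-rich plasma protein, had a level of 5988. Ahsg, the gene of fetuin-A, a carrier of calcium phosphate, was the highest of all 41 at 41124, rank 8 of the listed genes. Ahsg, Hrg and Kng1 lie close together on chromosome 16, with Fetub and Kng2 between them, and their products share cystatin domains.

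Of the 14 pairs of consecutive members on a chromosome with 10 or fewer protein-coding genes between them, the levels of neighbors were as close as 1.16-fold, for Fga over Fgg, and as far apart as 71.1-fold, for C4b over Cfb. Over unshared exon bases C4b was 14.6-fold above Cfb, and the widest pair was then Kng1 over Masp1 at 19.2-fold. The closest pair was then Cfb over C2 at 1.06-fold, and over the longest transcript it was Kng1 over Hrg at 1.04-fold. C8a was 2.01-fold above its neighbor C8b, C1s1 was 2.99-fold above C1ra, and C4bp was 13.2-fold above Cd55.

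Several members have a similar gene elsewhere, to which reads may align as well. The measure was the share of 50-base windows of the transcripts that also occur in transcripts of another gene, and 23 of the 41 genes had none. Windows were shared for 50.8% of C1ra (its duplicate C1rb and Gm18840) and for 35.1% of C1s1 (C1s2 and an antisense RNA). The share was 34.6% for C4b (C4a) and 17.2% for Kng1 (Kng2). The levels of these copies were all lower, with C4b 39-fold above C4a, C1ra 23-fold above C1rb, C1s1 8.55-fold above C1s2 and Kng1 5.9-fold above Kng2. The GeneCounts mode also leaves out reads that align equally well to several places. The values of C1ra, C1s1, C4b and Kng1, and of their copies, are therefore uncertain and may be too low by such reads. For Masp2, 52.5% of windows lie in Tardbp, and for Plg 10.2% lie in Slc22a3, both on the opposite strand. The library kit keeps the strand, but the strand setting of the count is not given in the sources used here. If strand was ignored, the GeneCounts mode leaves out reads from bases that genes of both strands share. The values of Masp2, Plg and C1s1 would then be too low by such reads. The same would hold for Fgg, C2, F5, Ahsg, Cd55 and Hc, with smaller shared parts, from 5.49% (Fgg) to 1.21% (Hc) of exon bases.

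**Figure D4:**
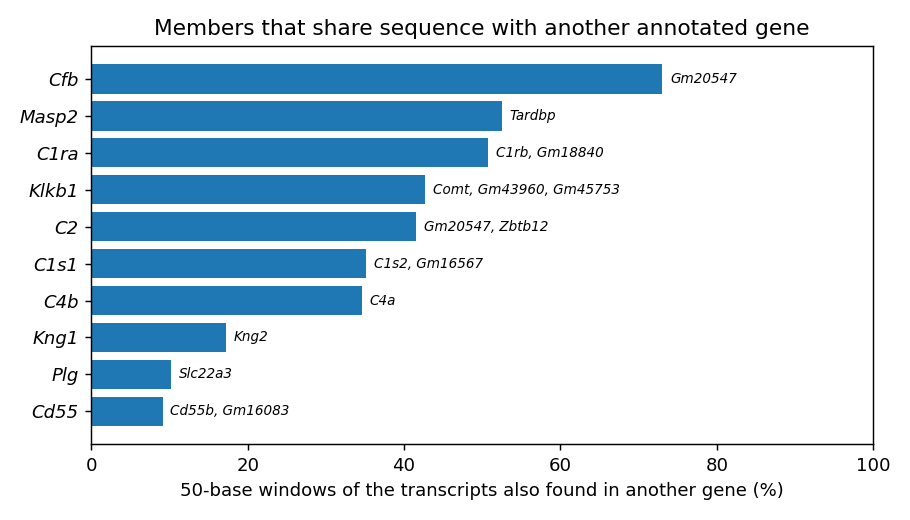
Percentage of the 50-base windows of each gene's transcripts that also occur in transcripts of another annotated gene (x axis), for the members above 5%. Names beside the bars are the other genes, and Cfb has the largest share at 73%.

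In the order of the 41 levels, 36 of the 40 adjacent pairs differed by less than 1.5-fold, and 18 changed order over longest transcript or coding length. Without values for single mice, adjacent genes in the order cannot be told apart. The lengths moved the level of a gene by a median of 1.52-fold and by more than 2-fold for 12 genes, most for C4bp (4.78-fold), Proz (4.64-fold) and Masp1 (4.47-fold).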

How the data were processed

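RNA-seq of mouse liver was analysed (groups Liver Luc ASO and Liver LL35 ASO, 3 mice each). The authors prepared stranded libraries after rRNA depletion, aligned reads with STAR 2.5.3a, counted them on Ensembl genes and normalized the counts by the RLE method of DESeq2. The deposited mean normalized count is a signal averaged by the authors over the compared libraries and is not corrected for length. The authors' log2 fold change, its standard error, Wald statistic, p-value and adjusted p-value were deposited in the same table and were not used, since they are the authors' own comparison. The table has 0 columns of single samples, so depth, replicate spread and tests could not be had.

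Of the 11779 identifiers, 11754 occur in GENCODE release M21 (GRCm38), which gave the union of exons, longest transcript and coding length. Levels, percentiles and windows were computed in Python 3.11.15 with pandas 2.3.3 and numpy 2.4.6. The percentile step was tested on simulated data, and the exon length and motif steps on short made-up examples. The windows and overlaps were not tested in this way. Plots were made in matplotlib 3.10.9. Named genes are all members and, of each other pathway list, the 10 highest by level and the near-identical partners of members, with the highest and lowest markers of each cell type; 1 gene under this rule is not reported here. C1qc, C3ar1, C5ar1, C5ar2, C7, Cd46, Cd59a, F3, F8, Ggcx, Plau, Vkorc1, Vwf and the overlapping or neighboring genes were named outside that rule after their values were seen. The members and lists were chosen with earlier results of these data known, and the motifs, windows and overlaps were added after the levels were seen.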

Additional observations from a re-analysis of the deposited data

How the results depend on the processing

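The median level of the members rose from 986 to 1865 normalized counts per kilobase when coding length replaced exon length, and over the longest transcript it was 1055. The other alternatives moved each summary by less than 1.5 times. The median percentile lay between 93.9 and 96.5, the number of members at or above the 90th percentile between 25 and 33, and the share of the summed counts between 3.4% and 4.97%. The alternative over exon bases not shared on the same strand was chosen after seeing the data. Among the members it changed only C2, Cfb and Klkb1, which stayed below the median of the members. It could therefore not move the median percentile of 96.3. No paired analysis was possible because the table holds no values for single mice, and for the same reason no replicate could be left out. Genes absent from the table were not analysed here, and the lowest mean normalized count in it was 15.6.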

Other observations

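Of 30 other complement genes, 25 were listed, with a median level of 119 normalized counts per kilobase, and 8 stood at or above the 90th percentile of listed genes. Beside Serping1, the high genes included Clu, the chaperone clusterin, at 2435, Cfhr2 at 554, C1rl at 508, C1qa, C1qb and Fcna, a ficolin, at 393. The receptors for complement fragments ranged from C3ar1 at 17.1, C5ar2 at 21.1 and C5ar1 at 29.5 to Vsig4, a receptor of Kupffer cells, at 275. Membrane inhibitors ranged from Cd59a at 196 to Cd46 at 3.61. Cfd, Cfhr3, Cr2, Itgam and Fcnb are not among the genes analysed here.

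Of 30 other coagulation and fibrinolysis genes, 23 were listed, with a median level of 201, and 11 stood at or above the 90th percentile. The inhibitors of proteases were among the highest, with Serpinf2 followed by Serpind1, heparin cofactor II, at 2858, Serpinc1, antithrombin, at 2005 and Serpina10, the protein Z-dependent inhibitor, at 616. Serpinc1 was 0.601 of the level of F2, the precursor of its main target, but 1.49 of it over coding length. Mcfd2 and Lman1, whose products carry factors V and VIII out of the endoplasmic reticulum, had levels of 959 and 400. F3, the tissue factor that starts clotting, was at 17, Vwf at 17.3 and the plasminogen activator gene Plau at 6.63.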
